A study of Mus musculus with 9 samples.

Results

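The genes described here copy DNA or divide the chromosomes. A list of 40 was used, 20 for DNA replication and 20 for mitosis, and 38 were read by a probe set that carries a single gene symbol. Those 38, 19 in each group, are part of 22180 genes read in this way, and all 38 were among the 16636 genes tested. The probe set with the highest mean over 9 arrays stood for a gene. The cyclin genes Ccnb1 and Ccne2 were left unread, Ccnb1 because no probe set carried its symbol alone and Ccne2 because its probe set is shared with Ints8.

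The cells were hematopoietic stem cells (HSCs), the marrow cells that renew themselves and give rise to all blood, sorted from mice aged 6 to 8 months. Bcl11a, the gene deleted, codes for a zinc finger transcription factor of blood cells. There were 3 groups of 3 mice. WT mice were Bcl11a fl/fl without Mx1-Cre, Het mice were Bcl11a fl/wt with Mx1-Cre, and KO mice were Bcl11a fl/fl with Mx1-Cre. All mice had received 5 injections of poly(I:C), which mimics viral RNA and switches on the interferon-driven Mx1-Cre. Mx1-Cre also acts outside HSCs, and since WT mice lack it, an effect of Cre itself cannot be told apart from that of the deletion. Cells were taken as LSK CD48- Flt3- CD150+ and as YFP+ or YFP-, and which of these each array held is unknown here. RNA was amplified and read on Affymetrix Mouse Gene 2.0 ST arrays, and values are log2 signals, so a difference of 1 is a doubling.

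Cells that enter the cycle first switch on genes for copying DNA. E2F factors bind the promoters of these genes and drive them when the retinoblastoma proteins let go. Genes of mitosis follow later, through promoters that often hold CCAAT boxes, bound by NF-Y, and a CHR element, bound by the MuvB complex with B-Myb or FoxM1. Most adult HSCs rest outside the cycle. In bulk RNA, fewer cycling cells and less of each transcript per cycling cell cannot be told apart.

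The promoters of 6 members are shown because the groups differ in the elements they hold, each from 250 bases before to 30 bases after the gene's start, 5′ to 3′ on the gene's strand. The sequences are RefSeq promoters of build GRCm38.p6, and capitals mark matches to the motifs searched on both strands. The letters searched were CCAAT for the CCAAT box, TTTGAA or TTTAAA for the CHR, and TTTCGCGC, TTTGGCGC, TTTCCCGC or TTTGCCGC for E2F. Cenpa, at chr5:30666636-30666915 on the plus strand, Cdc20, at chr4:118437314-118437593 on the minus strand, and Top2a, at chr11:99024160-99024439 on the minus strand, belong to mitosis. Mcm5, at chr8:75109259-75109538 on the plus strand, Mcm7, at chr5:138171854-138172133 on the minus strand, and Pcna, at chr2:132253151-132253430 on the minus strand, belong to DNA replication.
Cenpa: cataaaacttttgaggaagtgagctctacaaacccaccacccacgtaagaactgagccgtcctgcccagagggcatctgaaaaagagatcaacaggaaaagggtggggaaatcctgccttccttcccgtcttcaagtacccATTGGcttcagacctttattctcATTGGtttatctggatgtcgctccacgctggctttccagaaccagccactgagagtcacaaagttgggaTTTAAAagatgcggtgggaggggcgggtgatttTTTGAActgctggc
Cdc20: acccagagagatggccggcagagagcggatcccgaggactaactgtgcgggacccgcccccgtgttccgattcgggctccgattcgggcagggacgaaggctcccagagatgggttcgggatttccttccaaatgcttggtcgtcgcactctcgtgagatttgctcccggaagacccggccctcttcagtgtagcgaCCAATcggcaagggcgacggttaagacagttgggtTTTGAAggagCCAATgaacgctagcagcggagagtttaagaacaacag
Top2a: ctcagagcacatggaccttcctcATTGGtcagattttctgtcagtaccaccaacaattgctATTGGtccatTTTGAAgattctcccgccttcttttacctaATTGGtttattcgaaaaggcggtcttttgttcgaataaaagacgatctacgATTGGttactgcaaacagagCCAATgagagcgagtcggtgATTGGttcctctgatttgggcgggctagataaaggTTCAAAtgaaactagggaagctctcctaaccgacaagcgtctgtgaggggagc
Mcm5: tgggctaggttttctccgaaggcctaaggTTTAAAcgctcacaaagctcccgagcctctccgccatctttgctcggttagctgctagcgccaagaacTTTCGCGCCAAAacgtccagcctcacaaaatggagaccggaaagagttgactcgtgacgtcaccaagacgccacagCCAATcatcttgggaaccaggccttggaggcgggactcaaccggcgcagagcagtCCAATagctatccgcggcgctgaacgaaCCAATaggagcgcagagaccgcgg
Mcm7: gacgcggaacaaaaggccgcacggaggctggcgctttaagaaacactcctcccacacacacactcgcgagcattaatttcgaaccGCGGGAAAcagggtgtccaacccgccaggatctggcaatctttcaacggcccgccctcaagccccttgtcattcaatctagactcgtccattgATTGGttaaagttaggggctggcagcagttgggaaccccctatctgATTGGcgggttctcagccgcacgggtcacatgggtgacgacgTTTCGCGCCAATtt
Pcna: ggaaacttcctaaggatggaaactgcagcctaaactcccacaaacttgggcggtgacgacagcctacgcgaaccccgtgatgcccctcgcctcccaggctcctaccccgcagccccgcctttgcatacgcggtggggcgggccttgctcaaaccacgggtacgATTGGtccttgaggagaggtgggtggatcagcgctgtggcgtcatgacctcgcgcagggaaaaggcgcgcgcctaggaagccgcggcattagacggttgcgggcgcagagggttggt

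The Cenpa stretch held 2 CCAAT boxes and 2 CHR matches, the Cdc20 stretch 2 and 1, and the Top2a stretch 6 and 2, and none of the 3 held an E2F match. The Mcm5 stretch held 2 E2F matches that overlap, with 3 CCAAT boxes and 1 CHR match. The Mcm7 stretch held 2 E2F matches and 3 CCAAT boxes, one of which overlaps an E2F match, and Pcna held 1 CCAAT box alone. The search was then run over the full windows of 300 bases, which end 50 bases after the start, for the 32 of 40 members in the RefSeq table, 16 in each group. The mitosis group included Ccnb1 here, and the DNA replication genes had 18 windows since some have more than 1 start.

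The promoters of the groups differed in these letters. A CCAAT box was found in 15 of 16 mitosis windows (93.8%), in 12 of 18 DNA replication windows (66.7%) and in 37.4% of all 32851 windows in the table. The CHR was found in 15 of 16 (93.8%), in 7 of 18 (38.9%) and in 27.6% of all windows. An E2F match was found in 1 of 16 mitosis windows (6.25%), that of Cdk1, against 7 of 18 DNA replication windows (38.9%) and 2.26% of all. Birc5 was the mitosis gene without a CCAAT box and Bub1 the one without a CHR. The DNA replication genes with an E2F match were Mcm3, Mcm5, Mcm6, Mcm7, Cdc6, Cdt1 and E2f2. A match is a run of letters and not a shown binding site.

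**Figure D1:**
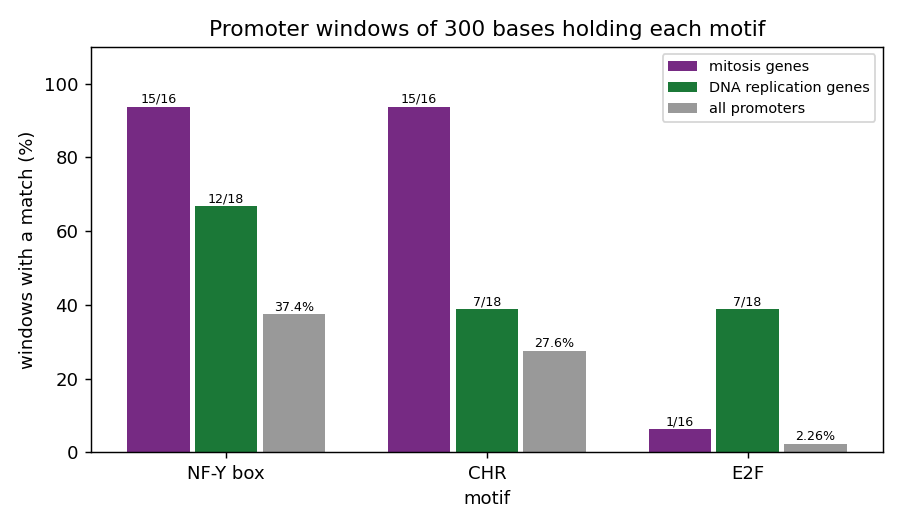
Share of promoter windows of 300 bases (vertical axis, percent) that hold at least 1 match to each motif, for mitosis genes (purple), DNA replication genes (green) and all windows (grey), where the NF-Y box is the CCAAT box. CHR matches were in 15 of 16 mitosis windows and E2F matches in 7 of 18 DNA replication windows.

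Over the series, the median signal of an array ran from 3.95 to 4.15. The interquartile range was 2.22, 2.47 and 2.69 in WT, 2.53, 2.39 and 2.77 in Het, and 2.83, 2.80 and 2.42 in KO. WT replicate 1 was thus the narrowest array and KO replicate 1 the widest. Xist, the RNA of the inactive X chromosome, and Y-linked genes marked 4 arrays as female and 5 as male: WT replicates 1 and 3, Het replicate 3 and KO replicate 3 were female. Bcl11a itself read 8.64 on average in WT, and the KO difference was -0.51 (exact permutation test, two-sided, p = 0.2, where 0.1 is the smallest possible). The KO arrays read 7.82, 7.90 and 8.66, so the array labelled KO replicate 3 lay within the WT range, and KO values of the mitosis genes as a group and of the members described most closely are also given without it. The Bcl11a difference was then -0.78. KO replicate 3 is also the only female KO array. Leaving it out thus changes the balance of the sexes too, and the parts of each cannot be told apart. Kit, the stem cell factor receptor of LSK cells, read 9.16 on average in WT, and Slamf1, which codes for CD150, read 4.64, 4.67 and 6.71 in WT and 6.43 or more on the other arrays. Of the genes the sort excludes, Flt3 read 4.99, 3.99 and 5.36 in WT and 3.55 to 4.10 elsewhere, and Cd48 read 3.63 to 5.13 over all arrays.

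Most transcripts of both groups were read above the level of absent RNA. On this platform, signals of genes that the mouse lacks or silences (Y-linked genes in females, Xist in males) ran from 2.22 to 4.22. Of the 38 members, 36 (94.7%) were above 4.22 on all 9 arrays, against 49.6% of all genes tested. The exceptions were Gins1, a subunit of the GINS complex of the replicative helicase, which read 4.07 on Het replicate 2, and E2f2, an E2F activator, which read between 3.67 and 4.28 with 8 of 9 arrays at or below 4.22. All 19 mitosis genes were above 4.22 on every array.

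Arrays of one genotype differed more in these genes than in most. The median SD within a genotype was 0.471 over the 38 members, against 0.368 over all genes tested. Kif23, a kinesin of the central spindle, had the widest spread at 0.829, and Tyms, thymidylate synthase, had 0.775. Cenpa and Pcna had the narrowest, at 0.14 each.

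Among 38 members, 0 passed an adjusted p of 0.05 in limma (Benjamini-Hochberg over all genes tested) in any comparison of genotypes. Between KO and WT, 0.0421% of all genes passed, and the smallest adjusted p of a member was 0.54. At an unadjusted p under 0.05, 3 of 38 members stood out in limma (Aurkb, Cenpa and Gins1), against 8.21% of all genes. Between Het and WT, 0% of all genes passed, and 3 of 38 members had an unadjusted p under 0.05 in limma (Cdc20, Mcm7 and Gins2), against 4.89% of all. Between KO and Het, 0% passed, and 1 of 38 members (Aurkb) had an unadjusted p under 0.05 in limma, against 4.56% of all. These shares are near the background of all genes.

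Groups seldom stood clear of each other. In KO against WT, 1 of 38 members read higher on all 3 KO arrays than on any WT array (Gins1; 6.51% of all genes) and 2 read lower (Cenpa and Pcna; 7.32%). In Het against WT, 2 read higher without overlap (E2f1 and E2f2; 4.51% of all genes) and 4 lower (Cenpa, Kif11, Mcm7 and Pcna; 3.9%). In KO against Het, 1 read higher without overlap (Rrm2; 4.42%) and 1 lower (Cenpa; 5.4%). The comparisons share arrays, so one gene's place in several of them is not independent.

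The mitosis genes read slightly lower in both deleted groups, and the DNA replication genes were split more evenly. In KO against WT, 15 of 19 mitosis genes had a lower mean, with a median difference of -0.24, and 9 of 19 DNA replication genes did, with a median of 0.01. Over all genes tested 45.5% were higher and the median was -0.04. In Het against WT, 12 of 19 mitosis genes were lower (median -0.21), as were 10 of 19 DNA replication genes (median -0.09), where all genes had 48.4% higher and a median of -0.01. Between KO and Het, 10 of 19 genes were higher in each group, with medians of 0.01 and 0.07.

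**Figure D2:**
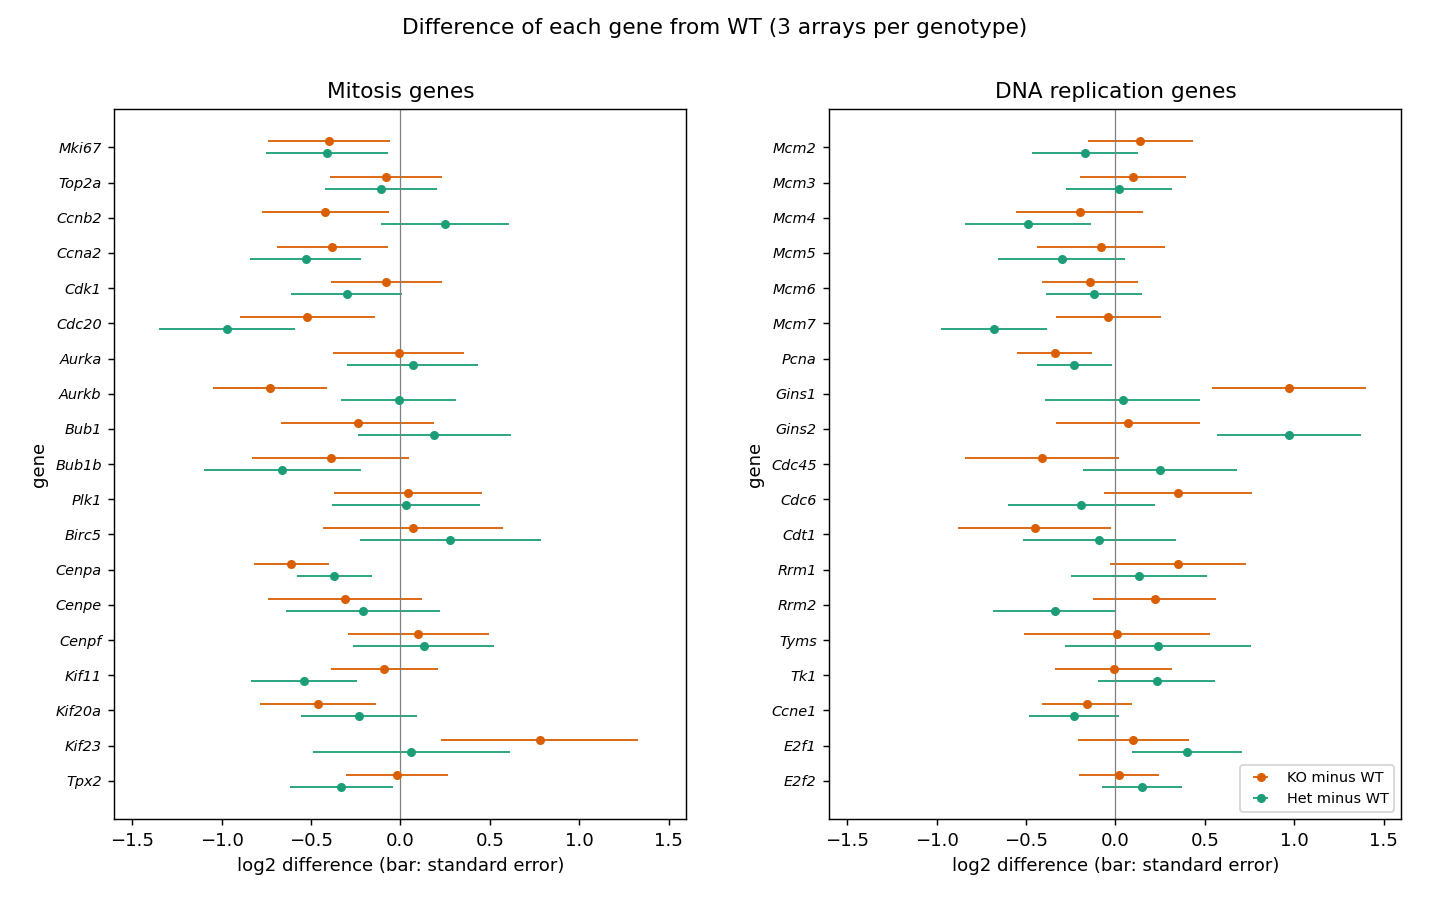
Difference from WT in log2 units (horizontal axis) of each gene for KO (orange) and Het (green), with bars for the standard error, 3 arrays per genotype. Most bars cross or come near 0. Gins1 at 0.97 in KO and Gins2 at 0.97 in Het lie farthest to the right, and Cdc20 in Het lies farthest to the left at -0.97.

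Mki67 and Top2a, used widely as markers of proliferation, overlapped between genotypes. Mki67, which codes for the Ki-67 protein that coats mitotic chromosomes, read 9.40, 9.08 and 9.40 in WT, 9.10, 8.47 and 9.09 in Het, and 8.95, 8.19 and 9.54 in KO. The KO arrays held both the lowest and the highest value of the series. Means were 9.29 ± 0.185 in WT, 8.89 ± 0.361 in Het and 8.89 ± 0.677 in KO (SD, n = 3). The KO difference was -0.40 (95% interval -1.16 to 0.36; limma adjusted p = 0.745), and it was -0.72 without KO replicate 3 and -0.05 without KO replicate 2. Top2a, the topoisomerase that untangles sister chromatids, read 8.32, 8.24 and 8.81 in WT, 8.08, 8.13 and 8.84 in Het, and 7.99, 8.28 and 8.86 in KO. The highest Top2a array of each genotype was its replicate 3, a female, and the KO interval ran from -0.77 to 0.61. The Top2a difference in KO was -0.08, or -0.32 without KO replicate 3.

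The cyclins and kinases of mitotic entry had intervals that span 0 in both deleted groups. Cdk1, the kinase that starts mitosis, read 7.86, 7.04 and 7.61 in WT, 7.33, 6.74 and 7.53 in Het, and 7.69, 7.03 and 7.56 in KO. In each genotype replicate 2, a male, was the lowest. Ccna2 and Ccnb2, cyclins that partner it, had KO means of 7.29 ± 0.22 and 7.47 ± 0.528 against 7.67 ± 0.255 and 7.89 ± 0.517 in WT (SD, n = 3). In Het they read 7.14 ± 0.586 and 8.14 ± 0.393, a difference of -0.53 for Ccna2 (95% interval -1.22 to 0.16) and of 0.25 for Ccnb2 (-0.54 to 1.04). Plk1, a kinase of spindle assembly, had means of 5.80 ± 0.617, 5.83 ± 0.629 and 5.84 ± 0.513 in WT, Het and KO, with a KO interval from -0.88 to 0.96.

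Cdc20, which activates the anaphase-promoting complex to end metaphase, had the largest Het difference downward. It read 6.35, 7.15 and 7.02 in WT, 5.43, 5.61 and 6.57 in Het, and 6.90, 6.20 and 5.87 in KO. The Het array that reached 6.57, replicate 3, overlapped the WT arrays, and so did the KO arrays. The Het difference was -0.97 (SE 0.38; limma unadjusted p = 0.0283, adjusted p = 0.97).

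Neither Aurora kinase passed, and their values were as follows. Aurkb, the kinase of the chromosomal passenger complex, read 7.17, 6.55 and 6.58 in WT, 6.66, 7.19 and 6.43 in Het, and 5.75, 5.75 and 6.60 in KO. The 2 male KO arrays were the lowest of the series, while KO replicate 3 lay within the other groups. Its KO difference from WT was -0.73 (95% interval -1.45 to -0.02; limma adjusted p = 0.592) and that from Het was also -0.73 (adjusted p = 0.998). Without KO replicate 3 the difference from WT was -1.02. Aurka, the kinase of spindle poles, had means of 5.40 ± 0.601 in WT and 5.39 ± 0.40 in KO (SD, n = 3). Birc5, or survivin, which sits in the same complex as Aurkb, read 6.15, 6.27 and 7.62 in WT, 7.11, 6.35 and 7.43 in Het, and 6.58, 6.00 and 7.66 in KO.

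Cenpa had the cleanest order by genotype among the members. It codes for the histone H3 variant that marks centromeres, and its promoter above holds 2 CCAAT boxes and 2 CHR matches. It read 6.81, 6.73 and 6.96 in WT, 6.42, 6.58 and 6.40 in Het, and 6.39, 6.02 and 6.27 in KO. No array of one genotype overlapped those of another, with means of 6.83 ± 0.117, 6.47 ± 0.0987 and 6.23 ± 0.189 (SD, n = 3). The KO difference was -0.61, a 1.52-fold lower signal (95% interval -1.07 to -0.14; limma unadjusted p = 0.0152, adjusted p = 0.54), and it did not pass. It was -0.63 without KO replicate 3. The Het difference was -0.37 (limma adjusted p = 0.992). Het and KO were barely apart, at 6.40 for the lowest Het array and 6.39 for the highest KO array. The KO difference from Het was -0.24 (95% interval -0.70 to 0.22, limma adjusted p = 0.998). The share of all genes with such an order was not computed.

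Other genes of the kinetochore and spindle checkpoint gave no such order. Cenpe, a kinetochore motor, had means of 7.0 ± 0.81, 6.79 ± 0.304 and 6.69 ± 0.625 in WT, Het and KO, and Cenpf, a kinetochore protein, had 6.20 ± 0.265, 6.33 ± 0.896 and 6.30 ± 0.224 (SD, n = 3). Bub1 and Bub1b, checkpoint kinases, had KO means of 5.43 ± 0.366 and 6.14 ± 0.283 against 5.66 ± 0.865 and 6.53 ± 0.218 in WT. A single array set the Bub1b spread in Het, where replicate 2 read 4.67 and the others 6.53 and 6.42.

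No kinesin passed, and in KO all 3 had intervals that span 0. Kif23 read 5.04, 6.65 and 6.72 in WT, 6.81, 5.45 and 6.33 in Het, and 6.65, 6.25 and 7.84 in KO, where WT replicate 1 was the lowest array and KO replicate 3 the highest. Its KO difference was 0.78 (95% interval -0.45 to 2.00). It rested on those single arrays, at 0.31 without KO replicate 3 and 0.23 without WT replicate 1. Kif11, the motor that separates spindle poles, read 6.81, 6.86 and 7.54 in WT and 6.28, 6.59 and 6.72 in Het, without overlap, while KO gave 6.79, 6.68 and 7.48. Kif20a, a motor of late division, had means of 5.41 ± 0.483, 5.18 ± 0.214 and 4.95 ± 0.505 in WT, Het and KO, and Tpx2, which builds spindle microtubules, had 6.76 ± 0.405, 6.43 ± 0.287 and 6.74 ± 0.325 (SD, n = 3).

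Among DNA replication genes, the MCM helicase subunits were close to WT in KO. Means of Mcm2 to Mcm7 in KO were 6.84 ± 0.397, 7.25 ± 0.537, 7.14 ± 0.315, 6.43 ± 0.242, 8.52 ± 0.27 and 6.81 ± 0.266 (SD, n = 3). Those in WT were 6.70 ± 0.433, 7.15 ± 0.228, 7.34 ± 0.578, 6.51 ± 0.723, 8.66 ± 0.333 and 6.85 ± 0.20. The 95% interval for Mcm6 in KO, the narrowest of these, ran from -0.74 to 0.46. Mcm7 read 7.08, 6.72 and 6.75 in WT, 6.39, 5.56 and 6.55 in Het, and 6.50, 6.98 and 6.94 in KO. All Het arrays were below all WT arrays for Mcm7, by -0.68 on average (SE 0.295; limma unadjusted p = 0.0424, adjusted p = 0.992), while KO overlapped WT.

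Partners that load and switch on the helicase varied among single arrays. Gins1 read 4.38, 5.02 and 5.38 in WT, 5.09, 4.07 and 5.74 in Het, and 6.35, 5.47 and 5.87 in KO. Its KO arrays all exceeded its WT arrays, by 0.97 (0.98 without KO replicate 3) or 1.96-fold (95% interval 0.01 to 1.93; limma unadjusted p = 0.0479, adjusted p = 0.599). Gins2, another subunit of the same complex, read 5.83, 7.36 and 6.53 in WT, 7.80, 7.06 and 7.76 in Het, and 6.67, 6.17 and 7.10 in KO. The Het difference for Gins2 was 0.97 (95% interval 0.07 to 1.86; limma adjusted p = 0.972). The Het arrays of Gins2 overlapped those of WT, and the contrast between the subunits was not tested. Cdc45, the third part of the active helicase, had means of 5.90 ± 0.607, 6.15 ± 0.831 and 5.49 ± 0.29 in WT, Het and KO. The loaders Cdc6 and Cdt1 had KO means of 5.47 ± 0.483 and 5.26 ± 0.275 against 5.12 ± 0.751 and 5.71 ± 0.374 in WT (SD, n = 3).

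Pcna, the sliding clamp of DNA polymerase, was the steadiest of the DNA replication genes. It read 10.26, 10.20 and 10.49 in WT, 10.17, 9.92 and 10.18 in Het, and 10.06, 9.84 and 10.02 in KO. Every WT array was above every Het and KO array, by small margins. The KO difference was -0.34 (95% interval -0.81 to 0.12; limma adjusted p = 0.672; -0.37 without KO replicate 3) and the Het difference -0.23 (adjusted p = 0.992).

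Enzymes that supply nucleotides and the factors of S phase entry showed no shared direction. Rrm1, the large subunit of ribonucleotide reductase, had means of 7.94 ± 0.817, 8.08 ± 0.387 and 8.30 ± 0.151 in WT, Het and KO (SD, n = 3). Rrm2, the small subunit, read 8.01, 6.63 and 7.61 in WT, 7.09, 7.11 and 7.03 in Het, and 7.25, 7.69 and 7.98 in KO, so KO was above Het but not above WT. Tyms had means of 6.39 ± 0.569, 6.62 ± 1.19 and 6.39 ± 0.253, and Tk1, thymidine kinase, had 6.75 ± 0.386, 6.98 ± 0.56 and 6.74 ± 0.306. Ccne1, the cyclin of S phase entry, had a KO mean of 4.81 ± 0.257 against 4.97 ± 0.108 in WT. E2f1 read 4.72, 4.93 and 4.91 in WT and 5.22, 5.20 and 5.35 in Het, without overlap, while its KO arrays spread from 4.56 to 5.72. E2f2 also read higher in Het, at 4.13 to 4.15 against 3.86 to 4.10 in WT, all within the range of absent transcripts.

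Single arrays differed more than genotypes did. As a summary, the deviation of each gene from its own mean over 9 arrays was averaged over the group. For mitosis genes this was 0.13, -0.14 and 0.40 in WT, -0.01, -0.36 and 0.18 in Het, and -0.12, -0.41 and 0.33 in KO. Every group thus had arrays well apart, and the means were 0.13 ± 0.268, -0.06 ± 0.276 and -0.07 ± 0.372 (SD, n = 3). On KO replicate 2, 0 of 19 mitosis genes were above their own mean, and on WT replicate 3, 18 of 19 were, where 45% to 54.9% of all genes were above theirs on any array. DNA replication genes gave -0.07, -0.17 and 0.24 in WT, -0.07, -0.26 and 0.26 in Het, and 0.00, -0.08 and 0.15 in KO.

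**Figure D3:**
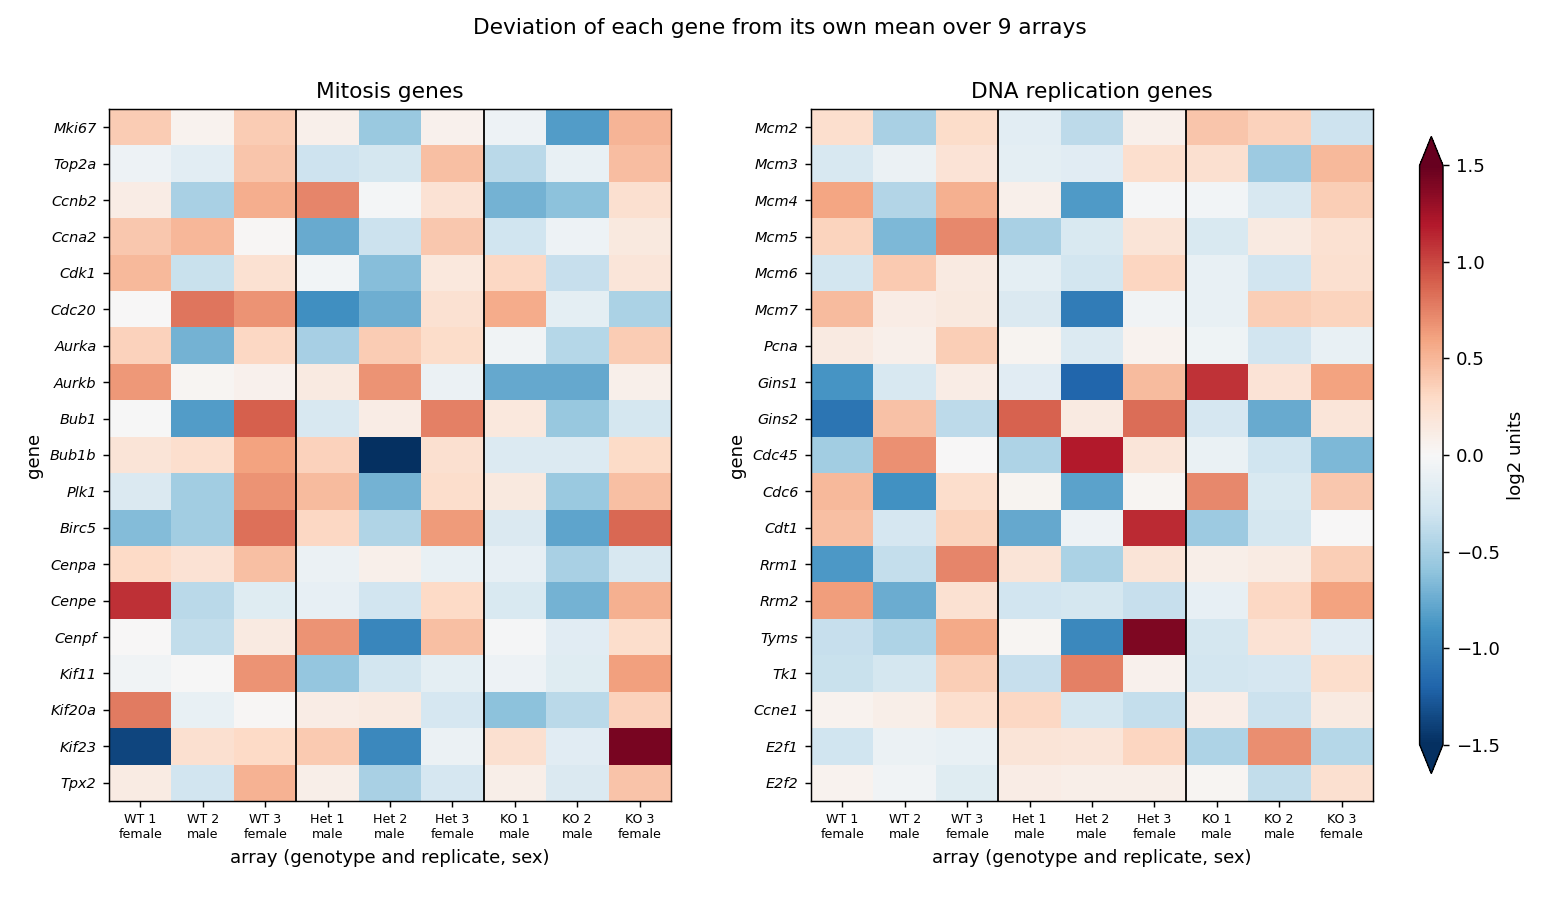
Deviation of each member from its own 9-array mean in log2 units (colour, red above and blue below, limits at 1.5), with mitosis genes on the left and DNA replication genes on the right, and 1 column per array in order of genotype and replicate. The column of KO replicate 2 is blue or pale throughout the mitosis genes and those of WT replicate 3 and KO replicate 3 are mostly red.

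The array differences followed the sex of the mouse in each genotype. Mitosis genes averaged 0.13 to 0.40 on the 4 female arrays and -0.41 to -0.01 on the 5 male arrays, which did not overlap. The female minus male difference was 0.40 within WT, 0.37 within Het and 0.59 within KO, where the values over all genes tested were -0.03, 0.05 and -0.04. For DNA replication genes it was 0.26, 0.42 and 0.18. Their averages overlapped between the sexes, at -0.07 to 0.26 on female and -0.26 to 0.00 on male arrays. The comparison by sex was chosen after seeing the data, and WT has 1 male array while Het and KO have 1 female array each. Replicate 3 was female and replicate 2 male in every genotype. Sex and replicate number thus largely coincide, and their separate parts were not tested.

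**Figure D4:**
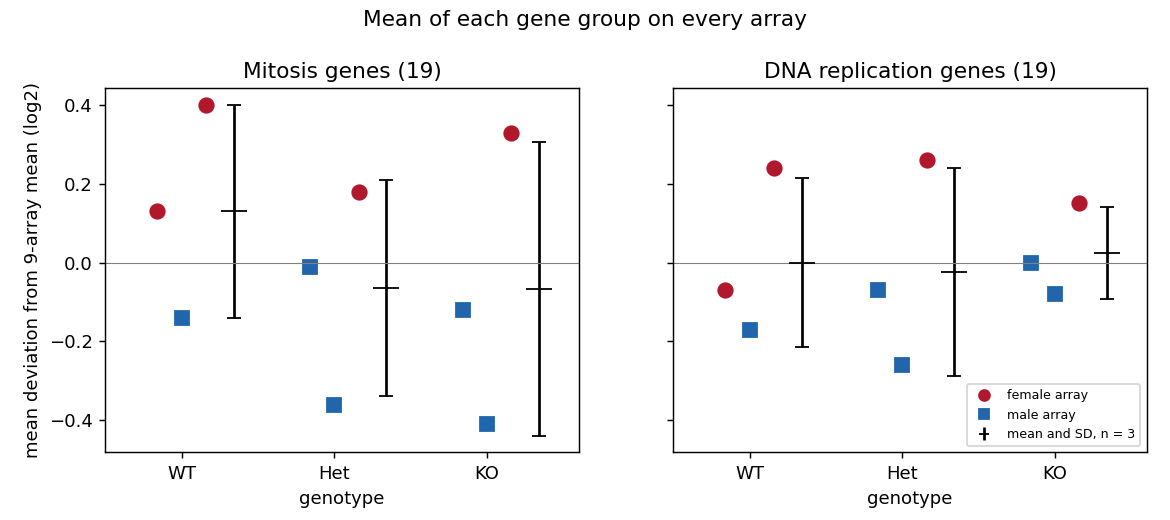
Mean deviation from the 9-array mean in log2 units (vertical axis) by genotype, with 1 point per array (red circles female, blue squares male) and a bar for the mean and SD of 3 arrays. In mitosis genes the female arrays lie from 0.13 to 0.40 and the male arrays from -0.41 to -0.01.

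Gene by gene, the lean toward female arrays was broad and no single gene passed. The counts come from the same arrays that led to this comparison. Members also moved together on single arrays, so the counts are not independent of each other or of that choice. In a fit with genotype and sex, 18 of 19 mitosis genes were higher on female arrays, with a median of 0.47, as were 15 of 19 DNA replication genes, with a median of 0.29. Over all genes 48.1% were higher and the median was -0.01. In limma 0 of 38 members passed an adjusted p of 0.05 (0.024% of all genes did, and the smallest member value was 0.977). At an unadjusted p under 0.05 there were 7 of 38 members in limma (Top2a, Aurka, Birc5, Cenpe, Mcm4, Mcm5 and Cdt1), against 4.81% of all genes, and all 7 were higher on female arrays. Without overlap, 3 members were higher on female arrays (Top2a, Mcm5 and Cdt1; 0.721% of all genes) and 0 were lower (0.589%). Within every one of the 3 genotypes, 10 of 19 mitosis genes (52.6%) and 8 of 19 DNA replication genes (42.1%) read higher in females, against 10.2% of all genes tested.

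Cdt1, which loads the MCM helicase, had the smallest p of these. It read 5.98, 5.86, 6.65 and 5.53 on the female arrays and 5.28, 4.76, 5.45, 4.98 and 5.27 on the male arrays. The lowest female value was above the highest male one, and the difference was 0.86 (SE 0.269; limma unadjusted p = 0.00993, adjusted p = 0.977). Mcm5 read 6.72, 7.11, 6.58 and 6.62 on female and 5.71, 5.90, 6.16, 6.16 and 6.52 on male arrays, a difference of 0.68 (SE 0.238). Birc5 differed most, by 0.90 (SE 0.353), followed among mitosis genes by Cenpe at 0.79. Cenpa, at 0.04, and Cdc20, at -0.03, which had among the largest genotype differences, read nearly alike in both sexes, and Cdc45 read lower on female arrays by -0.53.

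**Figure D5:**
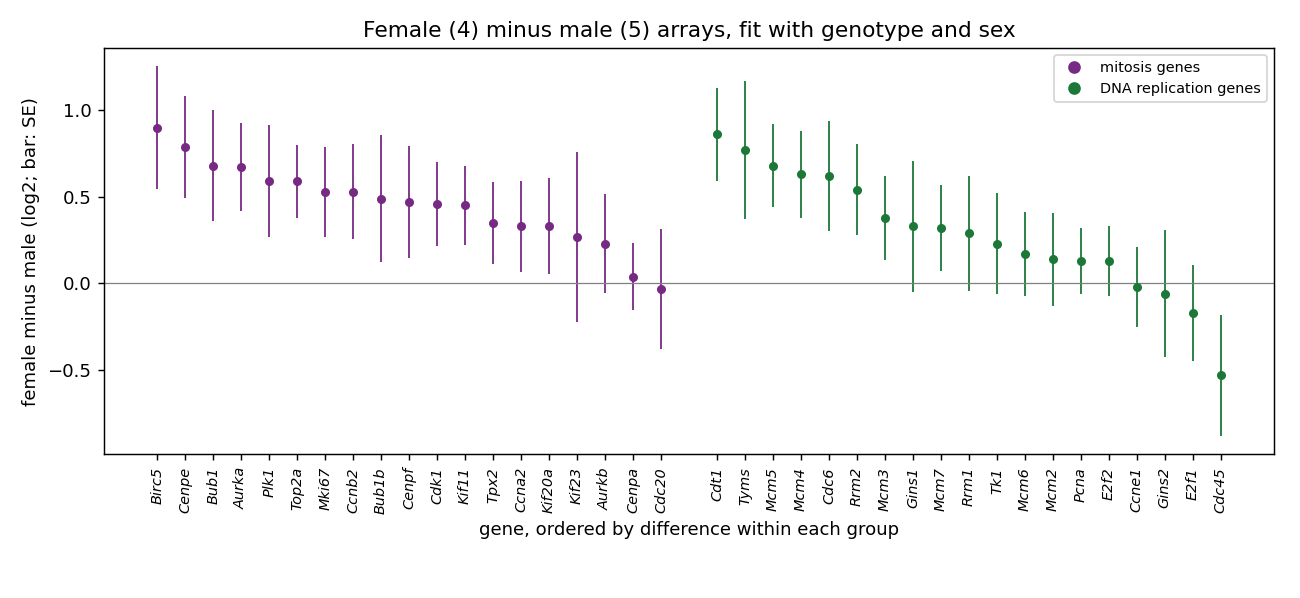
Female minus male difference in log2 units (vertical axis) of each gene from the fit with genotype and sex, with bars for the standard error, for mitosis genes (purple) and DNA replication genes (green), ordered by size. All mitosis genes but Cdc20, at -0.03, lie above 0, and Birc5 is the highest at 0.90.

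The mean of the erythroid markers was also higher on female arrays. Of 7 listed, 6 were measured and 5 of those 6 were higher on female arrays. Their mean level was 5.24 to 5.41 on female and 4.12 to 5.13 on male arrays, without overlap. Each of the 6 genes taken alone did overlap between the sexes. Car1, a carbonic anhydrase of red cell precursors, accounted for the largest difference at 1.85, with 8.41 to 9.49 on female and 5.16 to 9.03 on male arrays, and was the only one of the 6 above 4.22 on every array. The other 5 differed by -0.04 to 0.53. Other marker lists went both ways, with 4 of 5 macrophage, 4 of 6 neutrophil and 3 of 10 HSC markers higher on female arrays. The erythroid list is described with its values known. The part of erythroid markers in the difference between the sexes was not tested.

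The lower mitosis signal in the deleted groups shrank when sex was taken into account. With sex as a term, the mean difference of the mitosis genes from WT was -0.04 in KO, with 10 of 19 genes lower, and -0.04 in Het, with 9 of 19 lower, where it was -0.20 and -0.19 without that term. With the same term, 14 of 19 DNA replication genes were higher in KO, with a mean difference of 0.12, and 11 of 19 were higher in Het, with 0.07. Within female mice the mean difference of the mitosis genes from WT was 0.06 in KO and -0.08 in Het. Within male mice that of the mitosis genes was -0.13 in KO and -0.05 in Het. In each of these comparisons 1 side was a single array. The KO difference of the mitosis genes was -0.39 without KO replicate 3, with 18 of 19 lower, -0.03 without KO replicate 2, -0.06 without WT replicate 3 and -0.33 without WT replicate 2. The Het difference was -0.04 without Het replicate 2, -0.31 without Het replicate 3, -0.06 without WT replicate 3 and -0.33 without WT replicate 2. KO replicate 3 and Het replicate 3 are the only female arrays of their groups, and WT replicate 2 is the only male WT array. Leaving one out thus also changes the balance of the sexes, and the parts of sex and genotype cannot be told apart.

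The balance of DNA replication against mitosis genes was slightly higher in both deleted groups. The mean of the former minus that of the latter was -0.21, -0.03 and -0.16 in WT, -0.06, 0.10 and 0.07 in Het, and 0.13, 0.33 and -0.18 in KO. The KO arrays lay farthest apart, with KO replicate 2 the highest of the series and KO replicate 3 near the lowest, WT replicate 1. The difference from WT was 0.22 in KO and 0.17 in Het, beside an SD between replicates of 0.166. Without KO replicate 2 the KO value was 0.10, without KO replicate 3 it was 0.36, and with sex as a term it was 0.17.

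Among the lists of cell type markers, those of HSCs, neutrophils and B cells had mean levels that did not overlap between KO and WT. Of 12 HSC markers 10 were measured, and all 10 had higher means in KO and in Het than in WT, with median differences of 1.39 and 0.74, though none passed (smallest KO adjusted p = 0.0566 in limma). Their mean level was 5.99 to 7.03 in WT, 7.29 to 7.68 in Het and 7.48 to 8.11 in KO. Neutrophil markers averaged 5.41 to 6.78 in WT and 4.27 to 4.95 in KO, and Het overlapped both at 4.45 to 6.57. In KO 5 of 6 were lower than in WT, with single differences from -3.86 to 0.03. In Het 3 were higher and 3 lower. Only 2 of the 6 were above 4.22 on every array. B cell markers averaged 3.89 to 4.28 in WT, 3.93 to 4.20 in Het and 3.68 to 3.72 in KO. Of these 6 genes, 4 were at or below 4.22 on all arrays. The mean levels for multipotent and granulocyte progenitors, erythroid cells and megakaryocytes overlapped between KO and WT. So did those for T and NK cells, mast cells and basophils, macrophages, and the genes the sort excludes. The part of the cell type markers in the values of the cycle genes was not tested.

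Wider lists of the same pathways held some larger differences, none of which passed. Of 37 other genes of replication origins and forks, 21 were higher and 16 lower in KO than in WT, with a median of 0.02. Over all genes tested 45.5% were higher. In limma 0 passed and 1 had an unadjusted p under 0.05, against 8.21% of all genes. By smallest p, the leading upward genes were Orc5 and Orc3, subunits of the origin recognition complex, at 1.05 (limma adjusted p = 0.413) and 0.51 (0.628). Downward they were Dut, which clears dUTP, at -0.66 (0.615), and Rpa3, a subunit of the single-strand binding protein, at -1.33 (0.652). Rpa3 rested on 1 array, at -0.23 without WT replicate 2.

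Of 41 other genes of the spindle, kinetochore and division, 11 were higher and 30 lower in KO than in WT, with a median of -0.17. Over all genes tested 45.5% were higher. In limma 0 passed and 2 had an unadjusted p under 0.05, against 8.21% of all genes. On female arrays 36 of the 41 were higher, and WT has more female arrays than KO. The parts of sex and genotype in this lean were not tested. Kifc1, a minus-end kinesin, differed by -1.51 (limma adjusted p = 0.423) and Sgo1, which guards centromere cohesion, by -0.82 (0.607). Their Het differences were -1.58 and -1.06. Kifc1 was at or below 4.22, within the range of absent transcripts, on 3 arrays and Sgo1 on 1. In the upward direction the leading genes were Melk, a mitotic kinase, at 0.52 (0.69), and Nek2, a centrosome kinase, at 0.33 (0.75).

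Regulators of S phase entry and of mitotic genes held the gene with the smallest adjusted p of these wider lists. Of 35 measured, 21 were higher and 14 lower in KO, with a median of 0.10, where 45.5% of all genes tested were higher. In limma 0 passed and 2 had an unadjusted p under 0.05, against 8.21% of all genes. Cdk6, the kinase that frees E2F from the retinoblastoma proteins, had a WT mean of 9.01 and a KO difference of -1.03 (limma adjusted p = 0.237; -1.07 without KO replicate 3). Its Het difference was -0.69 (limma adjusted p = 0.888). It read 8.69 to 9.30 in WT, 8.32 to 8.33 in Het and 7.91 to 8.07 in KO, without overlap. Cdkn2c, an inhibitor of Cdk4 and Cdk6, had -0.46 (0.65). Lin54, the MuvB subunit that contacts the CHR, had 0.82 (0.621), and E2f6, an E2F repressor, had 0.79 (0.592).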

How the data were processed

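The series matrix deposited by the authors holds log2 values of 41345 probe sets on 9 arrays. RMA is named in the submitters' processing notes, while its version and settings are not given there or in the labels. Probe sets were named through the platform annotation: 23521 carried 1 symbol, 1814 several and 16010 were not listed. Of those with 1 symbol, 23328 matched the RefSeq gene table and 193 kept the annotation's symbol. The probe set with the highest 9-array mean stood for each of 22180 genes. Genes with a 9-array mean at or above the 25th percentile, 3.31, were tested (16636).

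A mean per genotype was fitted over all 9 arrays with limma 3.58.1 in R 4.3.3 (lmFit, eBayes), p-values were adjusted over all genes tested by Benjamini-Hochberg, and the threshold was 0.05. The script was tested on simulated data. Sex was read from Xist and Y-linked genes. All members are named, with the 2 genes of each wider list that had the smallest unadjusted p in each direction, Cdk6, Bcl11a, Kit, Slamf1, Flt3 and Cd48, and from the other marker lists only Car1, the erythroid gene with the highest mean. The members and lists were chosen with earlier results of these data known, and no p-value was computed for a list or its mean. Replicates are labelled biological. Their number, 3 per genotype, limits the precision. Alternatives were other filters, normalizations, terms, array weights, a replicate block and each array left out.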

Additional observations from a re-analysis of the deposited data

How the results depend on the processing

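No member passed an adjusted p of 0.05 in limma under any alternative tried. The count of all genes that passed between KO and WT, 7, did change. It was 4 with a filter at the median, 3 after a further quantile normalization, 24 with array weights, 3 with sex as a term, 0 with a term for each array's interquartile range, and 1 with the 2 groups fitted alone. With each array left out it ran from 0 (without WT replicate 1 or KO replicate 1) to 15 (without KO replicate 3). With a replicate block it was 0. Replicate numbers did not pair the arrays: the correlation of same-numbered arrays after removing genotype means ran from -0.185 to 0.229 (9 pairs) and that of others from -0.16 to 0.196 (18 pairs). The cause of these changes was not tested.

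Over the alternatives the mean difference of the mitosis genes ran from -0.39 to -0.03 in KO, where a further quantile normalization gave -0.32, from -0.33 to -0.04 in Het, and from 0.39 to 0.51 between female and male arrays. For DNA replication genes it ran from -0.07 to 0.15, from -0.16 to 0.10 and from 0.22 to 0.34. Single members changed direction between KO and WT in 82 of 721 values, all without passing. The 721 include alternatives that cannot change this difference, such as a filter or leaving out a Het array. The alternatives for the comparison by sex were added after seeing the data. Signals near the range of absent transcripts limit Gins1 and E2f2 among the members, and Kifc1, Sgo1, Melk and Lin54 among the genes named from wider lists.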

Other observations

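The wider list of the spindle and kinetochore leaned the same way by sex as the mitosis genes. It was read on the same arrays that led to the comparison by sex, so it is not independent of the members. Of 41 genes, 36 were higher on female arrays, with a median of 0.40, and 21 of 41 (51.2%) were higher in females within all 3 genotypes, against 10.2% of all genes tested. Of 37 genes of replication origins and forks, 26 were higher, with a median of 0.24, and 10 of 37 (27%) were higher within all 3 genotypes. Of 35 regulators of S phase entry and of mitotic genes, 19 were higher on female arrays, with a median of 0.10. Within all 3 genotypes, 4 of 35 (11.4%) were higher in females and 7 of 35 (20%) lower, against 10.2% and 10.5% of all genes tested.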
